A study of Homo sapiens with 4 samples.

Results

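The MYC, MAX and MXD network was taken as 10 genes, *MYC*, *MYCL*, *MAX*, *MXD1*, *MXD3*, *MXD4*, *MXI1*, *MNT*, *MGA* and *MLX*, out of 20033 protein-coding genes in the annotation. They were chosen by name, and *MYCN* was left out because it lies in the amplified region of these cells. The peaks of the network were those of either H3K27ac list that overlapped the body of one of these genes or the 10 kb on either side. That gave 50 of the 63699 peaks of control cells (sgCtrl) and 41 of the 50119 peaks of *SNHG1*-depletion cells (sgSNHG1). H3K27ac, acetylation of histone H3 at lysine 27, marks active promoters and enhancers.

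The cells were SK-N-BE(2)C, an established human neuroblastoma line with amplified *MYCN*. All had been transfected with a construct that carried Cas9 and dual guide RNAs together with a reporter plasmid, selected with puromycin and grown from sorted single cells. The sgCtrl cells (genotype label wildtype) carried a non-targeting guide RNA. The sgSNHG1 cells (genotype label *SNHG1* knockout) carried guide RNAs against *SNHG1*, a long noncoding RNA, and the study describes them as depleted and not as a complete knockout. Each group was 2 ChIP-seq samples of one cell line, and which of the sgSNHG1 clones was assayed is not given in the sources used here, so a difference between the groups and a difference between clones cannot be told apart. Both samples of a group had been pooled before the peaks were called. With 1 list per group no test between groups was possible, and every comparison describes these lists.

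MYC proteins bind DNA as dimers with MAX, mostly at the sequence CACGTG (the E-box), and raise the transcription of genes for growth, ribosomes and metabolism. The MXD proteins (MXD1, MXD3, MXD4 and MXI1), MNT and MGA also bind these sites with MAX but recruit corepressors, so they compete with MYC. MLX is a MAX-like partner that pairs with some of the repressors and with the glucose-sensing factors MLXIP and MLXIPL. In neuroblastoma with amplified *MYCN*, the MYCN protein takes the place that MYC holds in many other tumours.

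The start sites of the network genes were compared with the peaks by sequence. RefSeq (GRCh38.p14) gave 14 promoter windows for 9 of the 10 genes, each the 250 bases before a start site, and all 14 equalled the genome sequence. *MYC* had no window. CACGTG, which reads the same on both strands, lay in 3 of the 14 windows, at *MXD4*, *MNT* and *MLX*, and in 7.38% of the 21613 windows of all protein-coding genes. Those 3 windows are printed because they hold the site that the network's own proteins recognise, and the site is in capitals. Each is read in the direction of transcription, and bases that GENCODE places in an exon were left out.
MXD4 promoter, chr4:2262110-2262359, minus strand: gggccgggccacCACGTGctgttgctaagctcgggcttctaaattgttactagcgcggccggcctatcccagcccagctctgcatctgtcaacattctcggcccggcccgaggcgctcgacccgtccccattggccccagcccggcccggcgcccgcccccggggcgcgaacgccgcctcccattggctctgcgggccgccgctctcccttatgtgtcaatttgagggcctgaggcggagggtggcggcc
MNT promoter, chr17:2401105-2401310, minus strand: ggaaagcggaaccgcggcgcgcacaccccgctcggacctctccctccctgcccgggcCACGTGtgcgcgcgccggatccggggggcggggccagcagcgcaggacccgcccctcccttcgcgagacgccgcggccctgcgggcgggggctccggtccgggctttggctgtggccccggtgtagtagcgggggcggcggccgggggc
MLX promoter, chr17:42566850-42567071, plus strand: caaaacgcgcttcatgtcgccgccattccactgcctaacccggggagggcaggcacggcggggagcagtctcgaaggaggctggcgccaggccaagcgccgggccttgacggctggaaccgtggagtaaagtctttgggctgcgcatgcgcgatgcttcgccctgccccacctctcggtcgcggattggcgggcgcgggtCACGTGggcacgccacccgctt
The first base of the E-box lay at position -238 from the RefSeq start site of *MXD4*, -193 from that of *MNT* and -50 from that of *MLX*. None of the 3 printed stretches was overlapped by a peak of either list. The distance from the E-box to the nearest peak was 261 bases in sgCtrl and 246 in sgSNHG1 at *MXD4*, 357 in both lists at *MNT*, and 95 and 92 at *MLX*. A peak overlapped 4 of the 14 windows in sgCtrl and 6 in sgSNHG1. Around the summits themselves, in windows of 300 bases, CACGTG was found at 5 of the 50 sgCtrl peaks of the network (10%, against 6.48% of all sgCtrl peaks) and at 4 of the 41 sgSNHG1 peaks (9.76%, against 6.23%). These are matches of letters and not measurements of binding.

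Peaks were found at 9 of the 10 genes in both lists, and each of the 9 had a peak within 3 kb of its own start sites (a promoter peak) in both. A promoter peak in both lists was held by 63.0% of protein-coding genes. No member had peaks in one list alone, as had 5.09% of genes with a peak (sgCtrl alone) and 2.79% (sgSNHG1 alone). *MYC*, the founding member, had no peak in its body or within 10 kb in either list, as had 18.4% of protein-coding genes. The lists say only that no region there passed the peak caller's threshold, since they hold no value below it. The labelled cell type was checked by markers, and 9 of 9 marker genes of adrenergic neuroblastoma, the state of this line, had promoter peaks in both lists. *SNHG1*, counted over its gene body alone, held 1 peak in sgCtrl, with a fold enrichment of 3.44, and 0 in sgSNHG1. Of all sgCtrl peaks 38.5% had no overlapping sgSNHG1 peak. Of 6 mesenchymal markers 4 also had promoter peaks in both lists, *FN1* and *PRRX1* having none. Ranked by fold enrichment in sgCtrl, promoter peaks of adrenergic markers stood between percentiles 11.1 (*DBH*) and 93.7 (*ISL1*). Those of mesenchymal markers stood between 64.3 (*FOSL1*) and 91.1 (*VIM*). Promoter peaks thus did not tell the adrenergic and mesenchymal states apart. Of 6 markers of other cell types 1, *EPCAM*, had a promoter peak, 4 had any peak, and *ALB* and *KRT5* had none.

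The 9 genes with peaks held 50 peaks in sgCtrl and 41 in sgSNHG1, a ratio of 0.82 with a 95% interval of 0.529 to 1.26 that covers counting error only. The ratio was 0.787 over all peaks and 0.811 over the windows of all protein-coding genes, both within that interval. The bases covered by peaks fell from 27334 to 21494 over the network, a ratio of 0.786, beside 0.800 over all protein-coding genes. *MAX* had 5 peaks in sgCtrl and 1 in sgSNHG1, *MXD1* 5 and 4, *MXD3* 7 and 5, *MNT* 5 and 3, and *MGA* 5 and 4. Fewer peaks in sgSNHG1 were thus found at 5 genes, as at 45.4% of all genes with a peak. *MYCL* (1 peak), *MXI1* (4) and *MXD4* (12) had equal numbers, as had 36.1% of genes, and *MLX* alone had more, with 6 and 7, as had 18.5%. The position of every peak, its width and its height are drawn in the plot of peaks by gene.

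**Figure D1:**
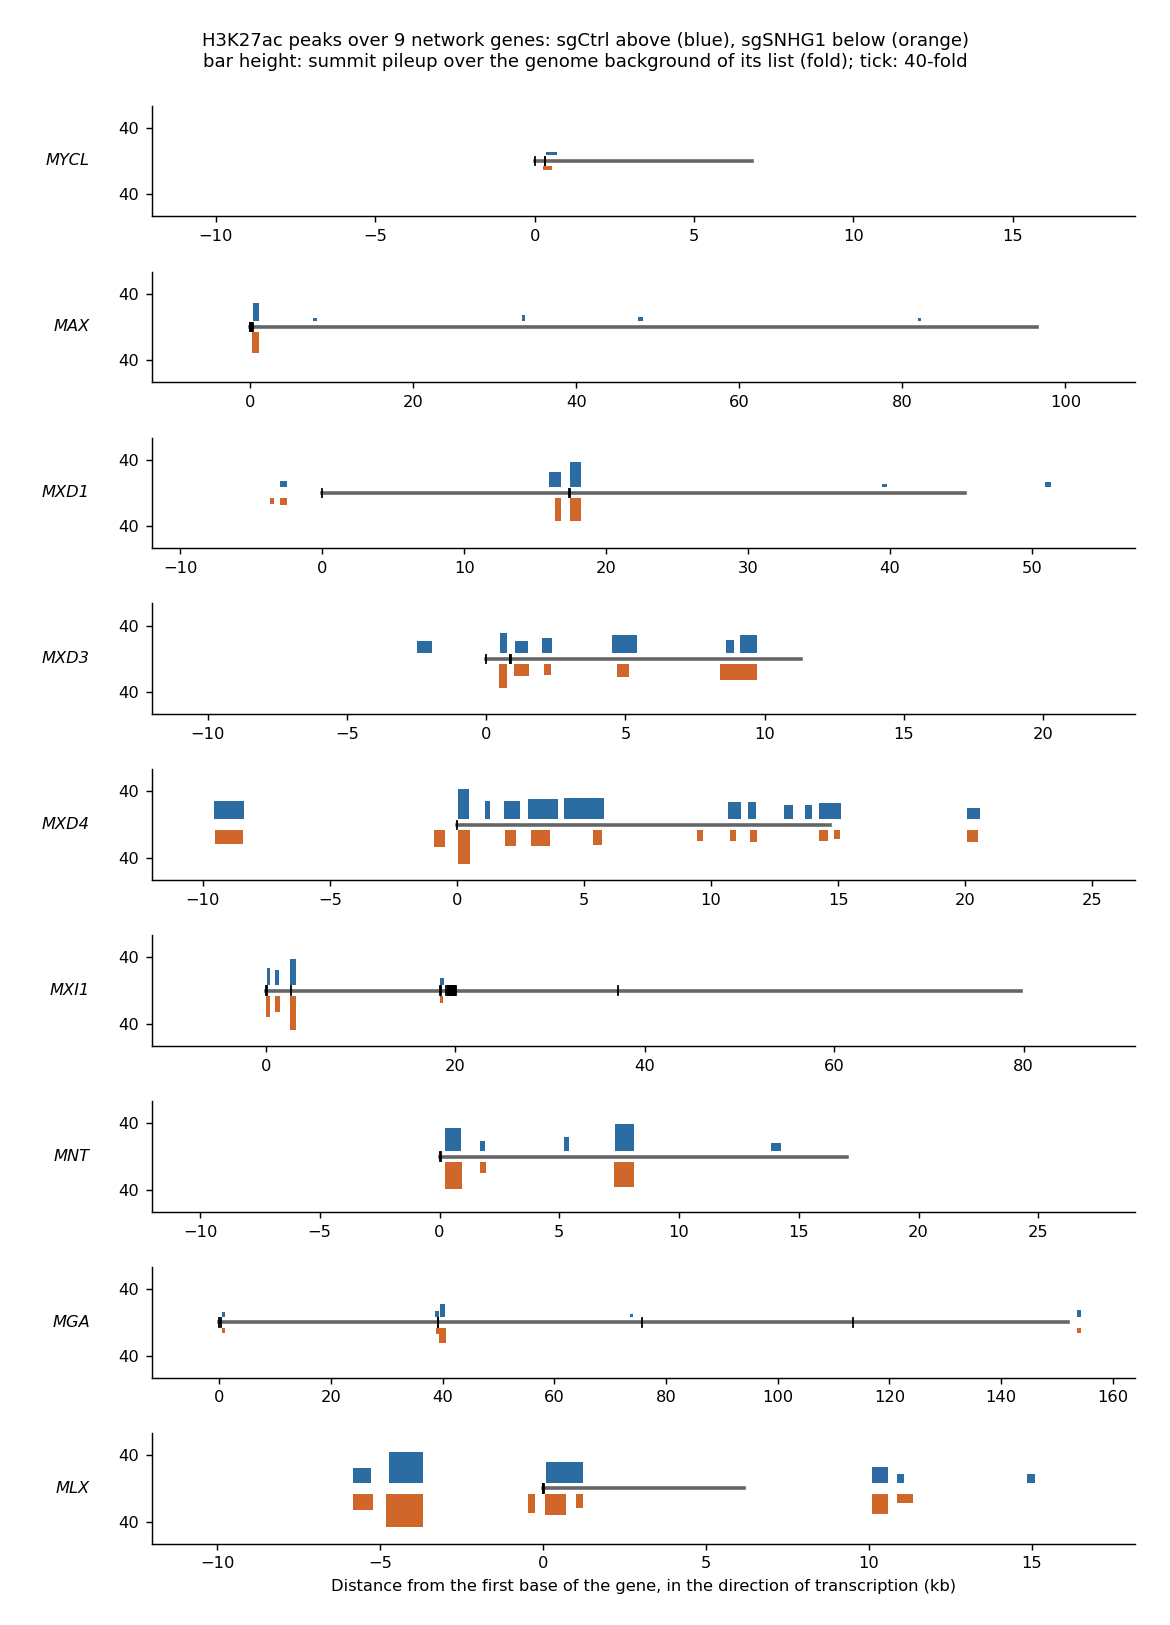
H3K27ac peaks of sgCtrl (blue, above) and sgSNHG1 (orange, below) over the 9 network genes that had any, by distance in kb from the first base of the gene. Grey lines are gene bodies and black ticks annotated start sites, bar width is peak width, and bar height is the summit pileup as a multiple of the genome background of its list (tick at 40). *MAX* has 5 blue bars and 1 orange bar, and *MXD4* has 12 of each.

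The lists were set side by side by 3 measures. Fold enrichment is the height at the summit over the local background that the peak caller took from the region. The pileup is the number of fragments over the summit, and the local background is in fragments too. Both were recovered from the fold enrichment and the p-value of each peak. The genome background was 4.89 fragments in sgCtrl and 4.66 in sgSNHG1, and pileups are compared as multiples of it. Differences are log2 ratios of sgSNHG1 to sgCtrl, and their 95% intervals cover counting of fragments only, not the spread between samples. A smaller share of cells with the mark and less of the mark per cell cannot be told apart.

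At the highest promoter summits of the 9 genes the log2 ratios of pileup lay between -0.15 and 0.36. *MYCL* (chr1:39895428-39902256, minus strand) is the MYC family member first found in lung cancer. Its only peak held 27 fragments in sgCtrl and 26 in sgSNHG1, the lowest of the 9 genes, with a fold enrichment of 4.10 and 4.24. *MAX*, the obligate partner, had the highest fold enrichment of the network, 13.9 and 13.1, with pileups of 132 and 139. Its promoter peak was higher than 98.8% of sgCtrl peaks and 98.0% of sgSNHG1 peaks by fold enrichment.

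Among the MXD repressors, *MXD1* rises as many cell types differentiate. As a multiple of the genome background, its promoter summit alone among the 9 was lower in sgSNHG1 by pileup. It held 180 fragments against 154 (log2 ratio -0.15, interval -0.47 to 0.16), and its fold enrichment was 12.7 against 10.3. *MXI1* had the largest difference in pileup of the 9, 187 fragments against 229 (0.36, interval 0.08 to 0.65), and it was the only one of the 9 whose interval lay above 0. At *MXD3*, a member linked to the S phase of the cell cycle, the pileup was 145 and 162 and the fold enrichment 3.72 and 5.33. *MXD4* held 213 and 226 fragments, with a fold enrichment of 3.48 and 4.59. The fold enrichment of *MXD3* and *MXD4* differed more than their pileups, and the local background under these peaks was lower in sgSNHG1, 29.6 against 38.2 fragments at *MXD3* and 48.5 against 60.4 at *MXD4*.

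*MNT*, the broadly expressed antagonist of MYC, held 164 and 178 fragments at its promoter summit, with a fold enrichment of 5.84 and 6.72. *MGA*, a large repressor that also carries a T-box domain, held 92 and 101 (8.20 and 9.71). *MLX* held 146 and 145 fragments but had the lowest fold enrichment of the 9, 2.75 and 2.91, over a local background of 52.5 and 49.2 fragments. By fold enrichment 7 of the 9 promoter summits were higher in sgSNHG1, as were 57.3% of genes with a promoter peak in both lists, and *MAX* and *MXD1* were lower. By pileup 8 of the 9 were higher, as were 64.4%, and *MXD1* was lower. Among the 8, *MYCL* (27 and 26 fragments) and *MLX* (146 and 145) were higher only as multiples of the genome background. The median log2 ratio of the 9 was 0.16 by either measure, beside 0.04 by fold enrichment and 0.14 by pileup over all 12614 genes with such peaks.

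**Figure D2:**
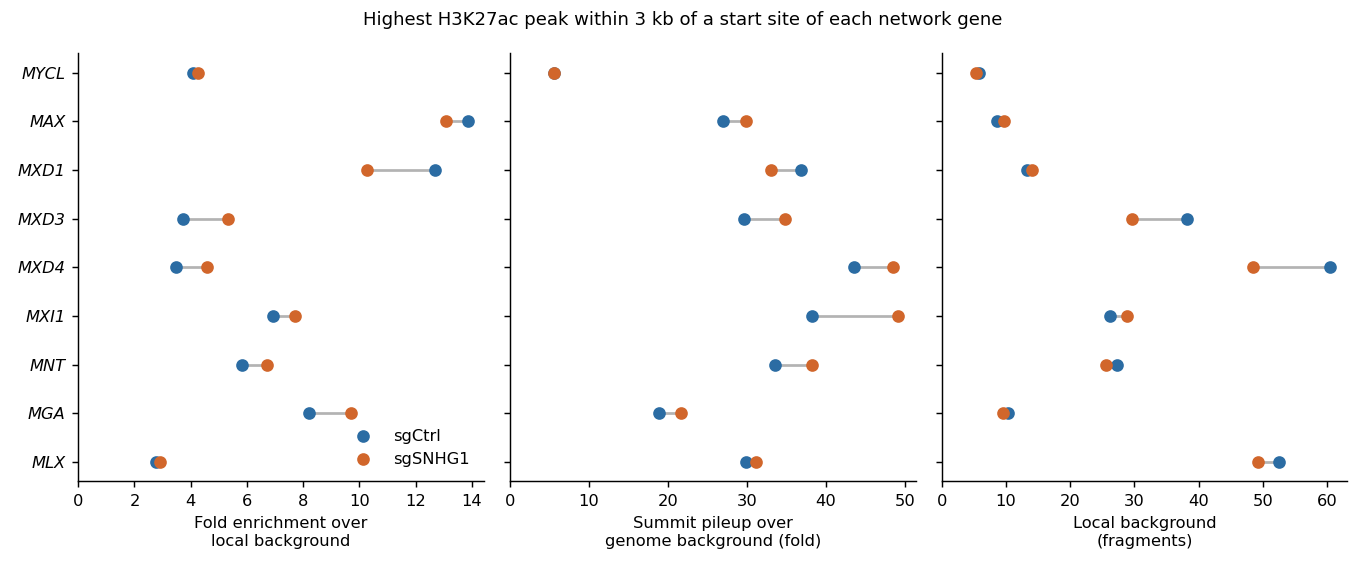
The highest H3K27ac peak within 3 kb of the start sites of each of 9 network genes in sgCtrl (blue) and sgSNHG1 (orange), as fold enrichment (left), summit pileup as a multiple of the genome background (middle) and local background in fragments (right). The lists lie close together in the middle panel, while at *MXD3* and *MXD4* the local background is lower in sgSNHG1.

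Over the whole window of a gene no member's highest fold enrichment differed by 1.5-fold or more. Such a difference was found at 1.6% of genes with a peak in both lists in the direction of lower and at 1.97% in the direction of higher in sgSNHG1. Ranked within its own list, the highest peak stood at a higher percentile in sgSNHG1 at 7 of the 9 genes, as at 40.8% of genes. The change was 8.57 percentile points at *MXD3* and 6.60 at *MLX*, between 0.83 and 2.88 at *MYCL*, *MXD4*, *MXI1*, *MNT* and *MGA*, -0.81 at *MAX* and -3.45 at *MXD1*. The median was 1.61, beside -0.69 over 15058 genes, and its direction changed with the measure used. At *MXD4* and *MLX*, and at *MXD3* in sgCtrl, the highest peak of the window belonged to the promoter of a neighbour (*HAUS3* and *POLN*, *PSMC3IP*, and *RAB24* and *PRELID1*). Over the gene body alone, without these neighbours' peaks upstream or downstream, the change was 23.9 points at *MXD4*, from percentile 42.1 to 66.0, and at *MLX* the percentile was 19.6 in sgCtrl and 21.2 in sgSNHG1.

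Of the 50 sgCtrl peaks of the network, 36 overlapped an sgSNHG1 peak (72.0%, interval 58.3 to 82.5%) and 14 did not, beside 38.5% of all sgCtrl peaks without a partner. Of the 41 sgSNHG1 peaks, 37 had a partner (90.2%, interval 77.5 to 96.1%) and 4 had none, beside 20.8% of all. The sgCtrl peaks without a partner lay mostly away from promoters, which was not so in sgSNHG1. Of the 24 sgCtrl peaks at the members' own start sites 21 were shared and 3 were not (20.7% of all promoter peaks were not), and all 9 at start sites of neighbours were shared. Of the 17 peaks away from start sites 11 were not shared (64.7%, interval 41.3 to 82.7%), beside 47.2% of all such sgCtrl peaks and 49.4% of those inside genes. The sgSNHG1 list held only 8 peaks of the network away from start sites, of which 1 had no sgCtrl partner (24.6% of all such sgSNHG1 peaks), and of its 24 own-promoter peaks 2 had none (14.7%).

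In sgCtrl the peaks without a partner were also weaker than the shared ones. In sgSNHG1 the median −log10 p values were close, 17.5 without a partner and 18.6 for shared peaks. The 14 sgCtrl peaks without a partner had −log10 p values from 8.34 to 17.0 with a median of 11.5, and the 36 shared ones a median of 24.2. Among the peaks away from start sites, 3 of 3 with a −log10 p from 6 to 10, 7 of 7 from 10 to 15 and 1 of 6 from 15 to 30 had no partner. The shares over all such sgCtrl peaks were 77.9%, 60.0% and 24.5%.

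*MAX* (GRCh38 chr14:65006174-65102695, minus strand) accounted for 4 of the 11. All 4 lay in its introns, 7912, 33486, 47875 and 82218 bases from the first base of the gene, with fold enrichments of 3.81, 3.82, 4.97 and 3.88 and pileups of 26, 47, 30 and 27 fragments. None had an sgSNHG1 peak, and the peaks at 47875 and 82218 bases also lay over *FNTB*, a neighbour that overlaps *MAX*. The promoter peak was 673 bp wide in sgCtrl and 772 bp in sgSNHG1, and the covered bases of the *MAX* window fell from 2191 to 772 (ratio 0.352, the lowest of the 9 genes). The −log10 p values of the 4 intronic peaks were 9.39, 14.99, 13.8 and 9.86 in the same order. Over all sgCtrl peaks away from start sites, most in these ranges had no partner (77.9% and 60.0%). Of 4980 protein-coding genes with 5 or more sgCtrl peaks, 85 (1.71%) had 1 or no sgSNHG1 peak, and *MAX* was among them. These cuts equal the counts of *MAX* itself, so the share does not measure how unusual *MAX* is. Without *MAX* the peak ratio of the network was 0.889. The 200 bases around the summit of the 1 with the highest fold enrichment are printed as the element that was found in one list alone, in the direction in which *MAX* is transcribed and from the GRCh38 genome. CACGTG was not among these letters.
MAX intron, chr14:65054720-65054919, minus strand: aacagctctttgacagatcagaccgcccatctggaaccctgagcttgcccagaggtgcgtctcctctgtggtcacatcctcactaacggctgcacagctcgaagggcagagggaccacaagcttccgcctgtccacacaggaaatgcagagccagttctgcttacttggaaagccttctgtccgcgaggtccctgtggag

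At *MXD1* (chr2:69897688-69942945, plus strand), 1 of the 2 peaks on either side of its inner start sites was higher in sgSNHG1. The peak whose sgCtrl summit lay 16675 bases from the first base of the gene had 109 fragments in sgCtrl and 150 in sgSNHG1 (log2 ratio 0.53, interval 0.17 to 0.90), while the peak at 17813 bases had 180 and 154. The upstream peak was also narrower in sgSNHG1, 431 bp against 808 bp. In sgSNHG1 the summits of the pair were thus nearly level. The stretch between both peaks, which no peak of either list overlapped, is printed from the RefSeq promoter window, without the exon bases.
MXD1 promoter, chr2:69914859-69915040, plus strand: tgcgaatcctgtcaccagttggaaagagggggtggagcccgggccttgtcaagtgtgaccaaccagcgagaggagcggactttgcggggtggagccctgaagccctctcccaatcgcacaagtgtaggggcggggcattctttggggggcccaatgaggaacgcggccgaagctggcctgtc
A peak at position -2857 from the first base of the gene, also at the promoter of *SNRNP27*, held 41 and 47 fragments. A peak in an exon 39697 bases from the first base (fold enrichment 3.81) and a peak beyond the end of the gene (4.64) were in the sgCtrl list alone. A further peak at the promoter of the neighbour *SNRNP27* (5.27) was in the sgSNHG1 list alone.

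*MXD4* (chr4:2247432-2262109, minus strand) lay in the broadest acetylated domain of the network. Its 12 sgCtrl peaks covered 8028 bp and its 12 sgSNHG1 peaks 5377 bp, a ratio of 0.670. The local background reached 13.3 times the genome background in sgCtrl (percentile 97.8 of all peaks) and 11.0 times in sgSNHG1 (percentile 97.3). Within the gene the summit pileups were lower in sgSNHG1, while the promoter summit was not. At 5577 bases from the start the summit held 151 fragments in sgCtrl and 100 in sgSNHG1 (log2 ratio -0.52, interval -0.90 to -0.15), at 10972 bases 122 and 76 (-0.61, interval -1.04 to -0.19), at 11602 bases 122 and 80 (-0.54, interval -0.96 to -0.12) and at 14413 bases 113 and 76 (-0.50, interval -0.94 to -0.07).

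Nearer to the promoter the difference was smaller, with 144 and 109 fragments at 3119 bases and 131 and 107 at 1980 bases, and both intervals included 0. The 6 shared peaks of the gene body, a set that was chosen after their values were seen, had a median log2 ratio of -0.51 by pileup and -0.48 by local background, but of -0.02 by fold enrichment. The fold enrichment was therefore nearly the same in both lists where summit and surroundings were both lower. Peaks at 1213, 13014 and 13801 bases were in the sgCtrl list alone, and peaks at 9551 and -571 bases in the sgSNHG1 list alone. The peak at 14413 bases overlapped a second sgSNHG1 peak, with its summit at 14956 bases and 60 fragments. Outside the gene, the peak at -9359 bases held 126 and 91 fragments (log2 ratio -0.40, interval -0.80 to 0.0019), and the peak at the promoter of *HAUS3* and *POLN* held 78 and 82.

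The surroundings of *MXD4* were counted without its own window. Within 2 Mb of the gene 432 sgCtrl and 296 sgSNHG1 peaks were found. Their ratio, 0.685, was the lowest among the 10 genes. Shared promoter peaks there had a median log2 ratio by pileup of -0.18 (100 peaks) and other shared peaks of -0.37 (144 peaks), beside 0.07 and -0.24 over the genome. The part of this neighbourhood in the values of *MXD4* was not tested. The plot of summits along *MXD4* shows both measures for each peak.

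**Figure D3:**
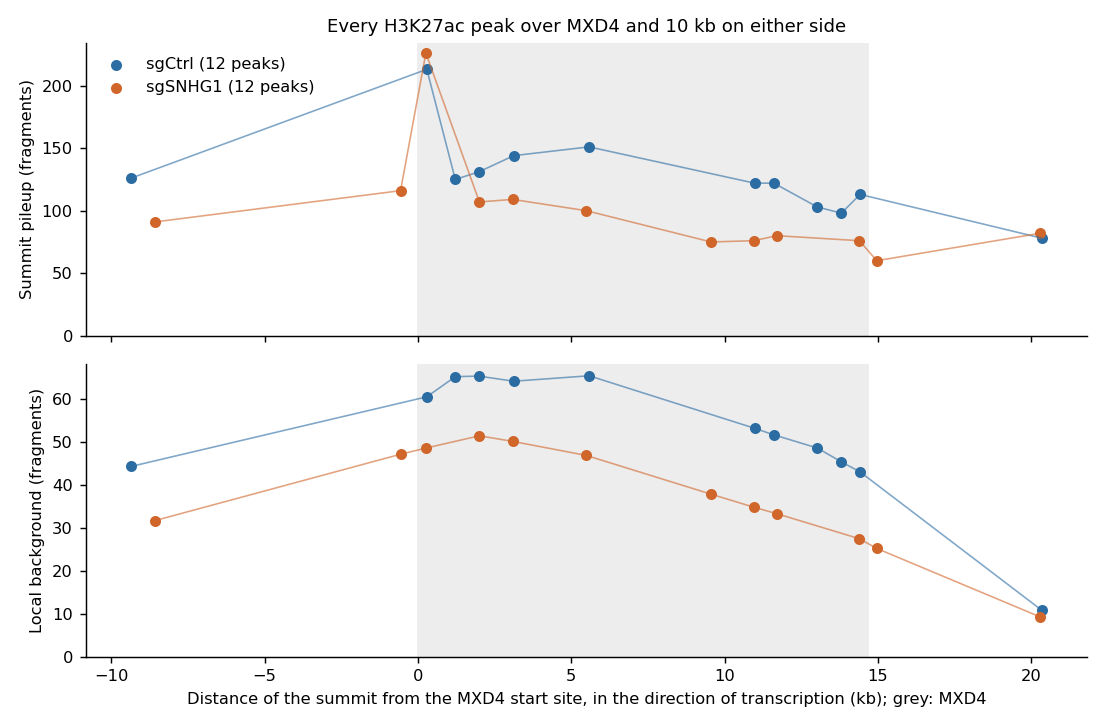
Summit pileup (top) and local background (bottom), in fragments, of each H3K27ac peak over *MXD4* and 10 kb on either side, by distance in kb from the start site. From 1980 to 14413 bases past the start the sgSNHG1 points (orange) lie below the sgCtrl points (blue) in both panels, whereas at the promoter the sgSNHG1 summit holds 226 fragments against 213.

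*MXD3* (chr5:177301461-177312757, minus strand) had peaks that differed in both directions. Its promoter summit held 145 fragments in sgCtrl and 162 in sgSNHG1 (log2 ratio 0.23, interval -0.10 to 0.56), while the peak at 2185 bases held 107 and 75 (log2 ratio -0.44, interval -0.89 to -0.0024) and the peak at 4901 bases, near the start of *PRELID1*, held 128 and 86 (-0.50, interval -0.91 to -0.10). The peak at 1110 bases held 86 and 80 fragments. At the promoters of *RAB24* and *PRELID1*, sgCtrl peaks at 8830 bases (91 fragments) and 9332 bases (129 fragments) both overlapped the same sgSNHG1 peak of 1335 bp, which held 105. Their log2 ratios were 0.28 (interval -0.14 to 0.70) and -0.23 (interval -0.61 to 0.16). A peak at position -2313, before the gene, (fold enrichment 2.91) was in the sgCtrl list alone. Within 2 Mb of *MXD3*, outside its window, the peak ratio was 0.715, the second lowest of the 10 genes.

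*MXI1* (chr10:110207605-110287365, plus strand) had 4 peaks in each list, all shared, and they lay at 3 separate start sites. The peak at the first start site held 120 and 139 fragments, the next 105 and 110, the highest 187 and 229, and the peak 18650 bases into the gene, at a start site further downstream, 50 and 45. The window covered 1855 and 1893 bp, a ratio of 1.02.

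*MNT* (chr17:2384073-2401104, minus strand) kept its promoter peak and a strong intronic peak 7529 bases from its first base, with 193 fragments in sgCtrl and 166 in sgSNHG1 (log2 ratio -0.15, interval -0.45 to 0.16) and a fold enrichment of 5.49 and 5.73. A second promoter peak at 1740 bases held 70 and 73 fragments. Peaks at 5276 and 14118 bases, with fold enrichments of 2.44 and 2.65, were in the sgCtrl list alone.

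*MGA* (chr15:41621134-41773081, plus strand) had promoter peaks at 2 separate start sites in both lists, with 36 and 35 fragments at the first and 92 and 101 at the highest. Beside the latter a smaller peak at 38899 bases held 42 and 39. A peak 73553 bases into the gene, near an internal start site and with 23 fragments, was in the sgCtrl list alone. The promoter of the neighbour *MAPKBP1* held 48 and 35 fragments (log2 ratio -0.38, interval -1.06 to 0.27).

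*MLX* (chr17:42567072-42573239, plus strand) lay among other active promoters. Its promoter peak was 1148 bp wide in sgCtrl, and in sgSNHG1 the same stretch held 2 peaks of 645 and 227 bp. A peak at position -384, on the far side of the printed E-box, was in the sgSNHG1 list alone (126 fragments, fold enrichment 2.43), and a peak beyond the gene over *RETREG3* was in the sgCtrl list alone (2.94). The promoter of *COASY* upstream held 218 and 220 fragments, and that of *PSMC3IP* downstream 111 and 134 (log2 ratio 0.34, interval -0.03 to 0.72). A second shared peak held 102 and 111 fragments at *COASY* and 64 and 58 at *PSMC3IP*.

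The 36 shared peaks of the network were also grouped by place. At the members' own promoters the 21 shared peaks had a median log2 ratio by pileup of 0.13, and 14 were above 0, beside a median of 0.07 and 57.3% above 0 for all shared promoter peaks. The 15 other shared peaks had a median of -0.23, and 5 were above 0, but they mix promoters of neighbours with peaks away from start sites. The 9 at promoters of neighbours had a median of 0.08 and 5 above 0, to be read beside the same 0.07 and 57.3%. The 6 away from start sites had a median of -0.51 and 0 above 0, beside -0.24 and 26.1% for all such shared peaks. Of these 6, 5 lay in the *MXD4* window. Without the *MXD4* window the mixed set of 15 shrank to 9, with a median of -0.07 and 4 above 0. The share above 0 at the members' own promoters lies near that of all shared promoter peaks. Of the 36, 1 was lower by 1.5-fold or more, at *MXD4*, and 0 were higher, beside 10.9% and 5.58% of all shared peaks. The interval lay below 0 at 6 peaks, 4 of them in *MXD4* and 2 in the *MXD3* window, and above 0 at 2, in *MXD1* and *MXI1*. By fold enrichment the median of the 36 was 0.06, beside -0.03 over all 39156 shared peaks, with 13 of the 21 own-promoter peaks (55.3% of all promoter peaks) and 9 of the 15 others (38.0%) above 0. The local background was higher in sgSNHG1 at 9 of the 21 (53.3%) and at 4 of the 15. Over all shared peaks away from start sites these 2 shares were 38.0% and 27.5%, which is no like comparison for the mixed 15.

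**Figure D4:**
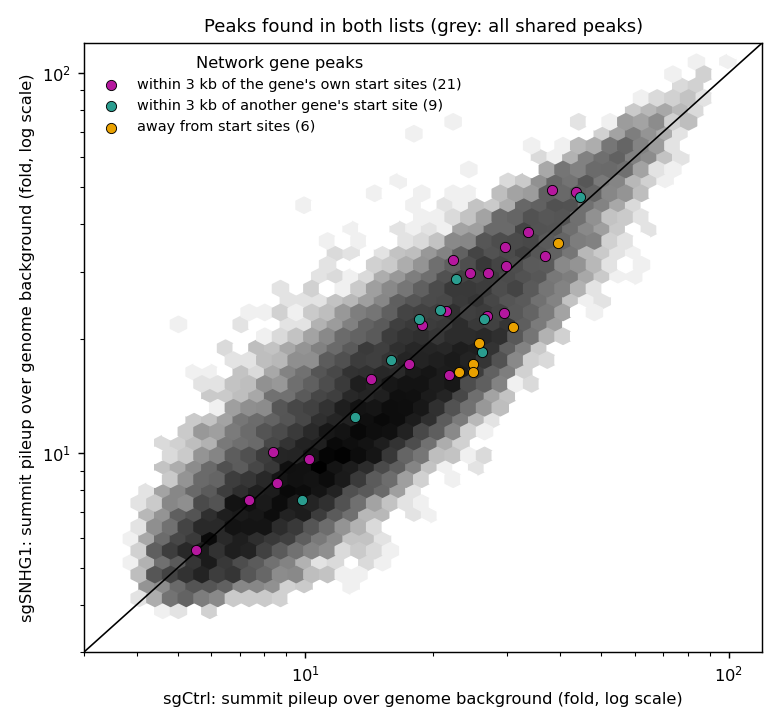
Summit pileup as a multiple of the genome background in sgCtrl (horizontal) and sgSNHG1 (vertical), both on log axes, for peaks found in both lists, with all shared peaks in grey and the 36 of the network in colour by place. Most of the 21 own-promoter peaks lie on or above the line of equal height, and the 6 peaks away from start sites, 5 of them in the *MXD4* window, lie below it.

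The surroundings of *MYC* did hold peaks, further out than the window. The nearest sgCtrl peak lay 18364 bases beyond the gene (fold enrichment 4.05, 29 fragments) and had no sgSNHG1 partner, and the nearest sgSNHG1 peak lay 50969 bases beyond it. That peak, at the start of the long noncoding gene *PVT1*, was shared and held 116 fragments in sgCtrl and 191 in sgSNHG1 (log2 ratio 0.79, interval 0.45 to 1.14), over a local background of 20.0 and 29.0. Within 200 kb of *MYC* there were 18 sgCtrl and 12 sgSNHG1 peaks, 16 and 12 of them in *PVT1*. The 10 shared ones had a median log2 ratio of 0.12, and 3 were lower in sgSNHG1. The region beyond the window was looked at after the absence of *MYC* peaks was known.

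The partners of the network were taken as lists of genes. Both genes for partners of MLX had peaks in both lists, and *MLXIP*, the higher, had a fold enrichment of 10.0 and 11.1. Of 12 genes of the SIN3 and NCoR corepressors, through which MXD proteins and MNT repress, 11 had peaks in both lists, 6 with a higher and 5 with a lower highest fold enrichment in sgSNHG1, and none by 1.5-fold or more. *SAP18*, a SIN3-associated subunit, had no peak in sgCtrl and 1 in sgSNHG1 (6.63). Peaks over this list numbered 90 and 69. All 14 genes for MYC cofactors and regulators had peaks in both lists, 8 higher and 6 lower, with 85 and 67 peaks. Among them *AURKA*, a kinase that stabilises the MYCN protein, had a highest fold enrichment of 4.10 in sgCtrl and 8.03 in sgSNHG1 (1.96-fold). These are different peaks. The sgSNHG1 peak lay beyond the end of the gene, at the edge of the window, and its sgCtrl counterpart (7.02, with 54 fragments against 55) ended 24 bases outside the window. At the promoter of *AURKA* itself the fold enrichment was 4.10 and 4.62, with 44 and 62 fragments (log2 ratio of pileup 0.57).

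All 12 genes of the MGA complex, a variant Polycomb complex, had peaks in both lists, 9 higher and 3 lower and none by 1.5-fold, and their peaks numbered 49 and 50. *WDR5* counts in this list and among the MYC cofactors. The highest in sgCtrl was *YAF2* (14.9 and 16.2). Of 20 genes described as MYC targets, 18 had peaks in both lists, 13 higher and 5 lower and none by 1.5-fold, with 65 peaks in each list. *CCND2*, a cyclin, had none in either list, and *TXNIP*, a gene that glucose induces through MLX and its partners, had 1 in sgSNHG1 alone (3.79). A higher fold enrichment in sgSNHG1 was found at 54.3% of all genes with a peak in both lists. Fold enrichment can stay level where summit and surroundings both differ. By pileup of the promoter peak of highest fold enrichment, *FBXW7* (331 and 160 fragments), *SAP30* (204 and 107) and *EIF4E* (126 and 69) were lower by 1.5-fold or more. All 3 lie on chromosome 4, as do the adrenergic marker *HAND2* (273 and 125) and *PPAT* (78 and 62). Their local background was lower too, 24.2 and 12.7 fragments at *FBXW7*, 13.8 and 7.91 at *SAP30* and 9.63 and 5.13 at *EIF4E*. The part of the chromosome in these values was not tested. *APEX1* (68 and 108) and *ARRDC4* (111 and 161) were higher by as much. Of all shared peaks 10.9% were lower and 5.58% higher by 1.5-fold or more, which is not limited to promoters. These genes were named after their values were seen, so they are no result about the lists. *ODC1* had no recovered pileup in sgSNHG1. Ranked within its own list, the highest peak stood at a higher percentile in sgSNHG1 at 4 and at a lower one at 7 of the corepressor genes, at 5 and 9 of the cofactor genes, at 5 and 7 of the MGA complex and at 8 and 10 of the MYC targets, beside the 40.8% given above. The median change in percentile points was -0.13, -0.40, -0.81 and -0.46, beside -0.69 over all genes with a peak in both lists. By this measure more genes of each list were lower than higher, as over all genes. Both genes for partners of MLX were higher, *MLXIP* by 0.37 points and *MLXIPL* by 4.20.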

How the data were processed

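H3K27ac was profiled by ChIP-seq in 4 samples of SK-N-BE(2)C cells, 2 sgCtrl and 2 sgSNHG1, which were grouped by their labels. The authors trimmed adaptors (cutadapt), aligned to GRCh38 with BWA, pooled the replicates within each group and ran MACS2 at a p-value of 1e-06, keeping duplicates. The deposited lists give each peak's fold enrichment, a ratio of summit to local background, the −log10 of its p-value, a score computed from that p-value, and the summit position. An input control is not named in the sources used here. The lists hold no depth per sample, which is therefore unknown, and no values per replicate.

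A gene's window was its GENCODE release 44 body plus 10 kb on either side, and promoter peaks had any base at most 3 kb from a start site of a protein-coding transcript. Peaks were shared where they overlapped by at least 1 base. Where a peak overlapped several, the one of highest fold enrichment was its partner. Pileup and local background were recovered from fold enrichment and −log10 p, assuming the MACS2 pseudocount of 1 and a Poisson distribution. The pileup was whole within 0.001 for 99.7% of the sgCtrl and 99.6% of the sgSNHG1 peaks solved, and 207 and 190 peaks gave no value. The lowest local background of a list, at which 7862 and 5559 peaks stood, was taken as its genome background. Intervals (95%, Wilson for shares, exact binomial for ratios of counts) cover counting error only, and duplicate reads are not independent molecules.

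Tools were scipy 1.17.1, pandas 2.3.3 and numpy 2.4.6 under Python 3.11.15, with figures drawn in matplotlib 3.10.9, and the steps were tested on simulated data. All 10 network genes are described with each peak. From the partner lists the genes with no peak in a list or a difference of at least 1.5-fold in fold enrichment were named. Otherwise the gene of highest sgCtrl fold enrichment was named. Genes that differed by as much in promoter pileup were added later. Alternatives were other windows, thresholds, list sizes, overlaps and measures of height. The members and lists were chosen with earlier results of these data known.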

Additional observations from a re-analysis of the deposited data

How the results depend on the processing

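No paired analysis was possible because each group is 1 pooled list, and for the same reason no replicate could be left out. Of 108 values under alternative settings 85 kept their direction or size, but this count is no measure of robustness. The criteria were wide. A percentile change of -40.3 at *MAX* by covered length counted as kept beside the main -0.81. So did a peak ratio of 0.93 with lists of equal size, beside 0.82. Some of the 85 also repeat the main value. Over the gene body alone *MYCL*, *MAX*, *MXI1*, *MNT* and *MGA* did so. Pairing peaks by longest overlap left the median log2 ratio of fold enrichment as it was. The share of sgCtrl peaks with a partner fell to 58.0% when an overlap of 50% of both peaks was required, and that of sgSNHG1 peaks to 70.7%. The latter was 96.6% over gene bodies alone and 100% when peaks within 1 kb counted as shared. The median percentile change of the 9 genes was 5.11 with lists of equal size (8 genes, as *MYCL* lost its sgCtrl peak) and 0.66 by recovered pileup, a setting added after seeing the data, as was leaving out *MAX* or *MXD4*. It turned to -0.29 with 50 kb on either side, -0.35 by −log10 p and -1.05 by covered length, so its direction is not settled. With 50 kb, *MYCL* (-0.90), *MXI1* (-0.29) and *MNT* (-7.71) turned. By −log10 p, *MNT* (-1.18), *MGA* (-0.35) and *MLX* (-1.74) turned. By covered length, *MYCL* (-1.55), *MXD4* (-1.05) and *MNT* (-5.19) turned. By pileup, *MAX* (0.66), *MXD4* (-0.28), *MNT* (-1.67) and *MLX* (-0.68) turned, and with a −log10 p of at least 10 *MYCL* did (-2.33). The cause was not tested. *MXD1* was lower and *MXD3* higher under all 7 alternatives, but some of these kept the same highest peaks and so repeat the main value. At *MXD1* this was so over the gene body alone and with 50 kb (-3.45), and at *MXD3* over the gene body alone (8.57). Pileups of 26 to 47 fragments, as at the *MAX* introns, limit what can be said of single peaks.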
